A study of Mus musculus with 2 samples.

Results

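The genes of the Notch receptors, their ligands and the Fringe glycosyltransferases were compared between 2 mouse neural progenitor lines. The 10 genes were Notch1, Notch2, Notch3, Jag1, Jag2, Dll1, Dll3, Lfng, Mfng and Rfng, out of 28780 genes on the array. They were taken by the gene name that the array design gives each probe, which yielded 14 probes on 32 spots. No further probe mapped to these genes by its accession, a check that reached only the 55.7% of probes whose accession matched a current gene. By the scanner software's flag for spots well above background, 9 genes were detected on both arrays and Dll3 in N31Pax6 alone. The rule goes by name alone, though these genes were proposed with earlier results of the same arrays known.

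The lines were N31Pax6 and its control N31EGFP, with 1 array each. N31Pax6 cells overexpressed Pax6, a paired-box transcription factor of eye and forebrain development, and N31EGFP cells overexpressed EGFP, a green fluorescent protein. Both transgenes were brought into the parent line N31 with the Tol2 transposon and were driven by the CAG promoter, which is active in most cell types. N31 is a line of neural progenitors made from induced pluripotent stem cells, of strain 129/Ola, and carries Oct3/4, Sox2, Klf4 and c-Myc under a doxycycline switch. Both lines had been in doxycycline for 24 h when RNA was taken, the drug that turns this switch on. A change of cell shape had by then been seen in N31EGFP alone. The sources used here do not say whether either line is 1 clone or a pool. A single array per line allows neither a check against replicates nor a p-value. The error given after ± is the scanner software's measurement error of the log2 difference, and it leaves out the variation between cultures.

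Notch receptors are single-pass membrane proteins that are switched on by ligands on a neighbouring cell. Binding of a Delta or Jagged ligand exposes the receptor to cleavage by an ADAM protease and then by gamma-secretase. The freed intracellular domain joins the DNA-binding protein RBPJ in the nucleus and switches on genes such as those of the Hes and Hey repressors. Fringe enzymes act in the Golgi and extend O-linked fucose on the receptor, which changes how well it answers each kind of ligand. In neural tissue the pathway is known for keeping progenitors from differentiating while their Delta-expressing neighbours become neurons.

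The promoters of Jag1, Jag2 and Lfng are shown because the Jagged genes differed in opposite directions between the lines and because Lfng alone among the member windows held the core of the RBPJ site. Promoters of 9 of the 10 genes were matched by symbol in RefSeq (build GRCm38.p6), in 10 windows, since Dll1 has 2 starts there. Each sequence below covers the 250 bases before the annotated start on the gene's own strand. Capitals mark the RBPJ core TGGGAA and the E-box CANNTG, both searched on either strand.
Jag1, chr2:137116521-137116770, minus strand: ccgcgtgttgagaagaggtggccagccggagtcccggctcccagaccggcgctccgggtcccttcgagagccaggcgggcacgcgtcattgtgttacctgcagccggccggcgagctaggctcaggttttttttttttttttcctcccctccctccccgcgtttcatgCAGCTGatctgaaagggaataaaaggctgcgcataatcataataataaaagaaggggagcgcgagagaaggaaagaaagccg
Jag2, chr12:112929496-112929745, minus strand: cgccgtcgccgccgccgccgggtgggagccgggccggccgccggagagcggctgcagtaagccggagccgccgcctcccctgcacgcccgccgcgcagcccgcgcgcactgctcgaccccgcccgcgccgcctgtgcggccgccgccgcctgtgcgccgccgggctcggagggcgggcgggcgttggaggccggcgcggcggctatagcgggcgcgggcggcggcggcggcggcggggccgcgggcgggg
Lfng, chr5:140607091-140607340, plus strand: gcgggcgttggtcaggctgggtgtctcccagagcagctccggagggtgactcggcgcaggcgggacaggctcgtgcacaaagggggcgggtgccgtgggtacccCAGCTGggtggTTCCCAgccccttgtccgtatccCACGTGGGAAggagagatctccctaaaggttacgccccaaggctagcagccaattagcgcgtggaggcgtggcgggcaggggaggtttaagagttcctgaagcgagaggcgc
The Lfng window held 2 RBPJ cores, starting 135 and 108 bases before the start, and the nearer one overlaps an E-box. The Jag1 window held 1 E-box and the Jag2 window held neither motif. Among all 32851 windows of this length, 21.6% held the RBPJ core and 66.2% an E-box. Of the 10 member windows, 1 held the core and 6 an E-box. Base composition varied widely, with 57.2% G and C in the Jag1 window and 87.2% in the Jag2 window, against a median of 52.4% over all windows. A match of letters is a description and not a bound site.

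Of the 10 genes, Mfng and Jag2 were at least 2-fold lower in N31Pax6 than in N31EGFP, none was at least 2-fold higher and 8 were within 2-fold. Of the 19251 genes detected on either array, 4.77% were at least 2-fold different, 2.35% on the higher and 2.43% on the lower side. At a rule of at least 1.5-fold, which was chosen after seeing the data, 5 of the 10 genes differed, against 13.7% of all genes. Jag1 and Dll1 were the 2 higher genes and Notch3, Jag2 and Mfng the 3 lower ones, where 5.91% of all genes were higher and 7.76% lower by that rule. The median log2 difference of the 10 genes was -0.11 and that of all genes -0.01, while the median absolute difference was 0.59 for the 10 genes and 0.18 for all genes. With 10 genes these shares rest on few features. For 6 of the 10 genes the difference was more than 2 times its measurement error, as for 17.1% of all genes.

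**Figure D1:**
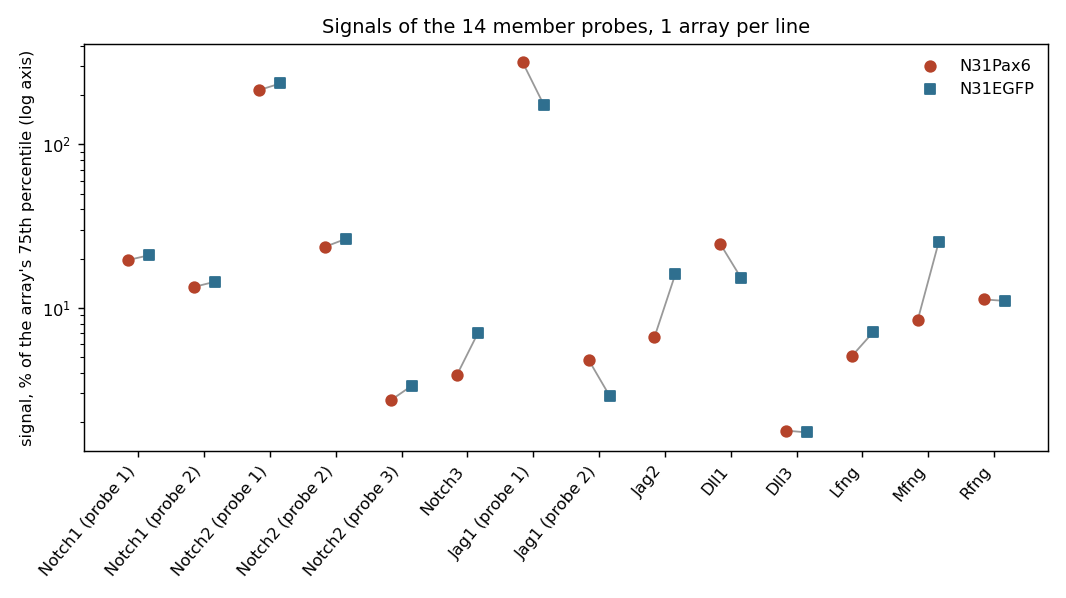
Signals of the 14 member probes, 1 point per array, as a percent of the array's 75th percentile of signal on a log axis, with N31Pax6 left of N31EGFP within each pair. Mfng, Jag2 and Notch3 lie lower in N31Pax6, Jag1 and Dll1 lie higher there, and heights of different probes are not comparable with each other.

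**Figure D2:**
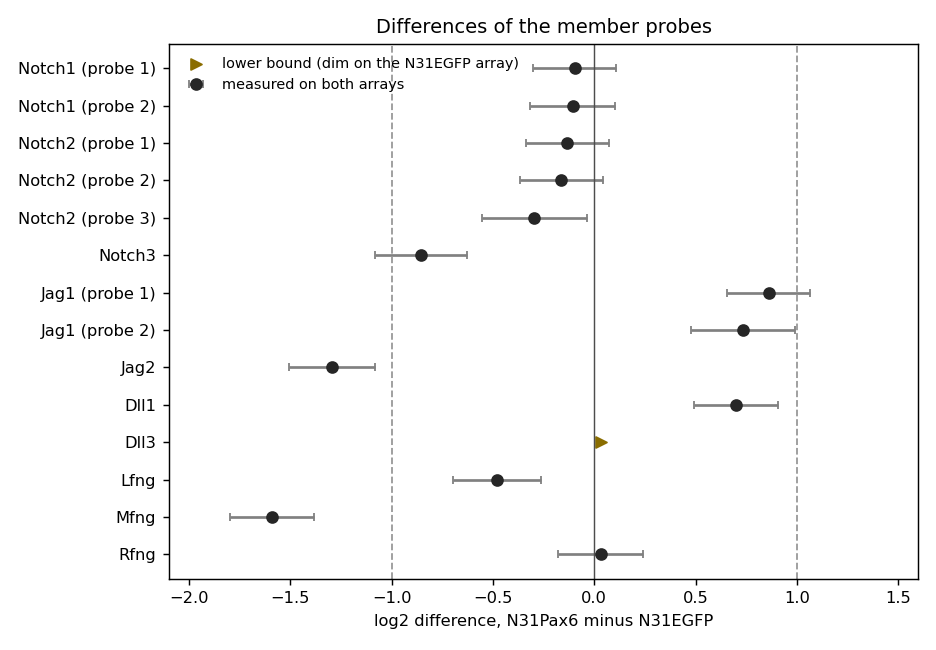
Log2 difference of each member probe, N31Pax6 minus N31EGFP, with bars for the measurement error and dashed lines at 2-fold. Mfng at -1.59 and Jag2 at -1.29 lie beyond the dashed line, the 2 Jag1 probes lie together on the higher side, and the Dll3 value is a lower bound.

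The receptor genes showed small differences for Notch1 and Notch2 and a larger one for Notch3. Notch1, the receptor most studied in neural stem cells, was read by 2 probes that lie next to each other on chromosome 2 (build mm7, positions 26466563 to 26466621 and 26466621 to 26466680, minus strand). Its first probe had fluorescence signals, in the scanner's arbitrary units, of 195 in N31Pax6 and 180 in N31EGFP as means of 10 spots each. The N31Pax6 array was brighter as a whole, with a 75th percentile of signal 1.16 times that of the N31EGFP array, and after scaling by this percentile the log2 difference was -0.10 ± 0.21. The second probe, with signals of 133 in N31Pax6 and 123 in N31EGFP, gave -0.11 ± 0.21. Both values lie within the measurement error of 0. Over the 10 pairs of replicate spots, 9 differences were below 0 and 1 above, between -0.28 and 0.25 with an SD of 0.14, and the scaled values of the lines overlapped.

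Notch2, a receptor with broad expression in embryo and brain, was read by 3 probes on chromosome 3 (mm7, plus strand). The probe at 98021215 to 98021274 had signals of 2133 in N31Pax6 and 2017 in N31EGFP, a log2 difference of -0.13 ± 0.20. The probe at 98020144 to 98020203 had 235 in N31Pax6 and 226 in N31EGFP, or -0.16 ± 0.21, and the one at 98018506 to 98018565 had 27.1 in N31Pax6 and 28.6 in N31EGFP, or -0.30 ± 0.26. All 3 were slightly lower in N31Pax6 after scaling, and the first 2 lie within their error of 0.

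Notch3, a receptor best known from smooth muscle cells and pericytes of blood vessels, was 1.81-fold lower in N31Pax6. Its single probe on chromosome 17 (mm7, 30311822 to 30311881, minus strand) had signals of 38.5 in N31Pax6 and 60 in N31EGFP. The log2 difference was -0.86 ± 0.23, and 3.61% of all genes were at least as far lower. This is a dim probe with 1 spot, and with normexp background correction (offset 50) and quantile normalization its difference was -0.34. Markers of vessel-wall cells and fibroblasts differed too, without a shared direction. Of 5 such genes, Dcn was at least 2-fold higher in N31Pax6 and Col1a1 and Thy1 were at least 2-fold lower, while Pdgfrb, a pericyte receptor gene, differed by -0.41. Rgs5, a pericyte gene, was not well above background in N31EGFP. The summed signal of the 5 genes before scaling was 1889 in N31Pax6 and 775 in N31EGFP. In N31Pax6 it came mostly from Dcn, with 1644 there and 184 in N31EGFP. Their part in the Notch3 difference was not tested. In such bulk RNA, fewer cells of a type and less RNA per cell cannot be told apart.

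Among the 4 ligand genes, Jag1 and Dll1 were higher and Jag2 was lower in N31Pax6, while Dll3 lay within its error of 0. Jag1, a Serrate-type ligand with a role in many tissues, was higher in N31Pax6 by both of its probes on chromosome 2 (mm7, minus strand). The probe at 136822550 to 136822609 had signals of 3142 in N31Pax6 and 1491 in N31EGFP, a log2 difference of 0.86 ± 0.20, or 1.82-fold. The probe at 136824059 to 136824118, whose start lies 1509 bases away, had 47.7 in N31Pax6 and 24.7 in N31EGFP, or 0.73 ± 0.25. The probes thus differed from each other by less than their errors. Of all genes, 3.096% were at least as far higher as Jag1.

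Jag2, the other Serrate-type ligand, was 2.45-fold lower in N31Pax6, by 1 probe with 1 spot and so without a second reading. Its probe, which the array design places on an unplaced part of chromosome 12 (mm7, chr12_random, 2920858 to 2920917), had signals of 65.4 in N31Pax6 and 138 in N31EGFP. The log2 difference was -1.29 ± 0.21, and 1.13% of all genes were at least as far lower. With normexp and quantile normalization it was -0.73, within 2-fold. The pair of Jagged genes therefore lay on opposite sides of 0 by more than 3 times the error of each.

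Dll1, a Delta-type ligand that activates Notch on neighbouring cells and marks differentiating progenitors, was 1.63-fold higher in N31Pax6. Its probe on chromosome 17 (mm7, 13604553 to 13604612, minus strand) had 10 replicate spots per array. Their signals ran from 226 to 263 with a median of 243 in N31Pax6, and from 89.2 to 146 with a median of 134 in N31EGFP. After scaling the lines did not overlap, and the difference was above 0 at 10 of 10 pairs of spots. The mean log2 difference was 0.70, with an SD over spots of 0.19 and a measurement error of 0.21. One pair of spots stood apart at 1.21, through an N31EGFP spot of 89.2, and without it the mean of the other 9 was 0.64 with an SD of 0.06. Replicate spots repeat the reading of 1 RNA sample and are not replicates of the lines.

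**Figure D3:**
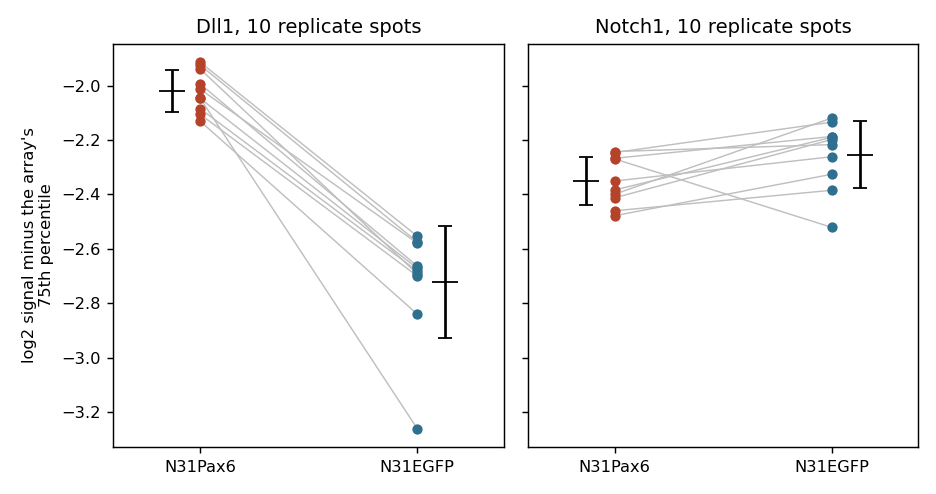
Replicate spots of the Dll1 probe (left) and of the first Notch1 probe (right), as log2 signal minus the array's 75th percentile, with lines joining spots at the same place on both arrays and black bars for mean and SD over 10 spots. All 10 Dll1 spots lie higher in N31Pax6, while the Notch1 spots of the lines overlap.

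Dll3, a divergent Delta gene whose product does not activate Notch on neighbouring cells, was barely detected. Its probe on chromosome 7 (mm7, 25227642 to 25227701, minus strand) had a signal of 17.6 in N31Pax6, well above background, and of 14.8 in N31EGFP, which was not. By the rule for dim genes its lower bound was 1.02-fold higher in N31Pax6, which sets no upper limit. As the dim value was itself above the lowest signal called well above background, the bound equals the measured log2 difference of 0.04 ± 0.42. This lies within its error of 0, so no direction can be given for Dll3.

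The Fringe genes ranged from lower to level. Mfng, which in co-culture assays favours signalling by Delta over Jagged ligands, was 3.01-fold lower in N31Pax6 and had the largest difference among the 10 genes. Its probe on chromosome 15 (mm7, 78839075 to 78839134, minus strand) had signals of 83.5 in N31Pax6 and 216 in N31EGFP. The log2 difference was -1.59 ± 0.21, and 0.535% of all genes were at least as far lower. With normexp and quantile normalization it was -0.98, just within 2-fold. Lfng, the Fringe gene of the somite clock and of the developing brain, differed by -0.48 ± 0.22, with signals of 50.3 in N31Pax6 and 60.4 in N31EGFP (chromosome 5, mm7, 139585160 to 139585219, plus strand). That is 1.39-fold lower, and 10.5% of all genes were at least as far lower. With normexp and quantile normalization it was -0.19, within its error. Rfng, the third Fringe gene, had signals of 112 in N31Pax6 and 94.2 in N31EGFP and differed by 0.03 ± 0.21 after scaling (chromosome 11, mm7, 120891528 to 120891587, minus strand). Each Fringe gene rests on 1 probe with 1 spot, so no second reading bears on these values.

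Other genes of the pathway were mostly close between the lines. In 7 lists of 61 genes, 57 had a probe, 52 were detected on either array and 50 of these were within 2-fold. Hey1 was at least 2-fold higher in N31Pax6 and Dlk1 at least 2-fold lower. Their share of 3.85% lies near the 4.77% over all genes. Dlk1, a non-canonical ligand without the domain that activates Notch and an imprinted gene, was 3.98-fold lower, with signals of 2527 in N31Pax6 and 8660 in N31EGFP and a log2 difference of -1.99 ± 0.20. Its second probe gave -2.04. Dner, another non-canonical ligand gene of neurons, differed by -0.18 ± 0.22.

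Of the 7 target genes, 5 were above background. Hey1, a transcriptional repressor gene, had signals of 1982 in N31Pax6 and 711 in N31EGFP, a log2 difference of 1.26 ± 0.20, or 2.40-fold higher. Hes1, the classic Notch target of neural progenitors, had 254 in N31Pax6 and 121 in N31EGFP and differed by 0.85 ± 0.21. Nrarp, a feedback inhibitor gene, differed by 0.22 ± 0.20. Hes7 and Heyl were dim and detected in 1 line each, with bounds of 0.06 and -0.41 on the log2 scale. As measured, Hes7 differed by 0.95 ± 0.80, with a value in N31EGFP that was not well above background. Heyl differed by -0.41 ± 0.46 as measured, within its error of 0. Hes5 and Hey2 were detected in neither line. The median of the 5 genes was 0.22 with the bounds of Hes7 and Heyl taken as values. It would be larger with Hes7 as measured.

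The genes that modify, cut and transport the receptors gave few large values. Of 6 genes of O-glycosylation, Gxylt2, which adds xylose to receptor sugars, differed by 0.86 ± 0.20, Gxylt1 by 0.19 ± 0.20 and Eogt by -0.13 ± 0.20, while Poglut1 differed by 0.05 ± 0.20. Of 9 measured protease genes, the gamma-secretase subunit gene Aph1b differed by 0.73 ± 0.20, where its near copy Aph1c was not above background and may share sequence with it. The other Aph1b probes gave 0.80 ± 0.20 and 0.32 ± 0.21, so they differ in size. Adam17 and Adam10, the genes of the sheddases, differed by -0.32 ± 0.20 and -0.31 ± 0.21 (Adam10 by -0.09 with normexp and quantile normalization), and Psen2, of the catalytic subunit, by 0.32 ± 0.20. Of 12 measured trafficking and ubiquitin ligase genes, the Deltex genes Dtx4 and Dtx3 differed by 0.54 ± 0.20 and 0.24 ± 0.20, and the ligase genes Itch and Dtx2 by -0.16 ± 0.20 and -0.15 ± 0.20. The second Dtx3 probe gave -0.19, so its probes disagree in sign. None of these 3 lists held a gene that was 2-fold different.

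Of 14 measured genes of the nuclear complex, none was 2-fold different. The coactivator gene Maml3 differed by 0.60 ± 0.29 (0.16 with normexp and quantile normalization), Rbpjl by 0.36 ± 0.22, the acetyltransferase gene Kat2b by 0.35 ± 0.20 and Maml2 by 0.29 ± 0.22. Rbpj, the DNA-binding protein gene, differed by -0.01 ± 0.20. The proneural genes, whose products are known to activate Delta genes, were dim in both lines. Neurog3 differed by 0.42 ± 0.29 (0.05 with normexp and quantile normalization) and Neurog1 by 0.28 ± 0.23. Neurog2, a Pax6 target in the forebrain, was not well above background in N31EGFP, with signals of 17.9 in N31Pax6 and 15.3 in N31EGFP.

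**Figure D4:**
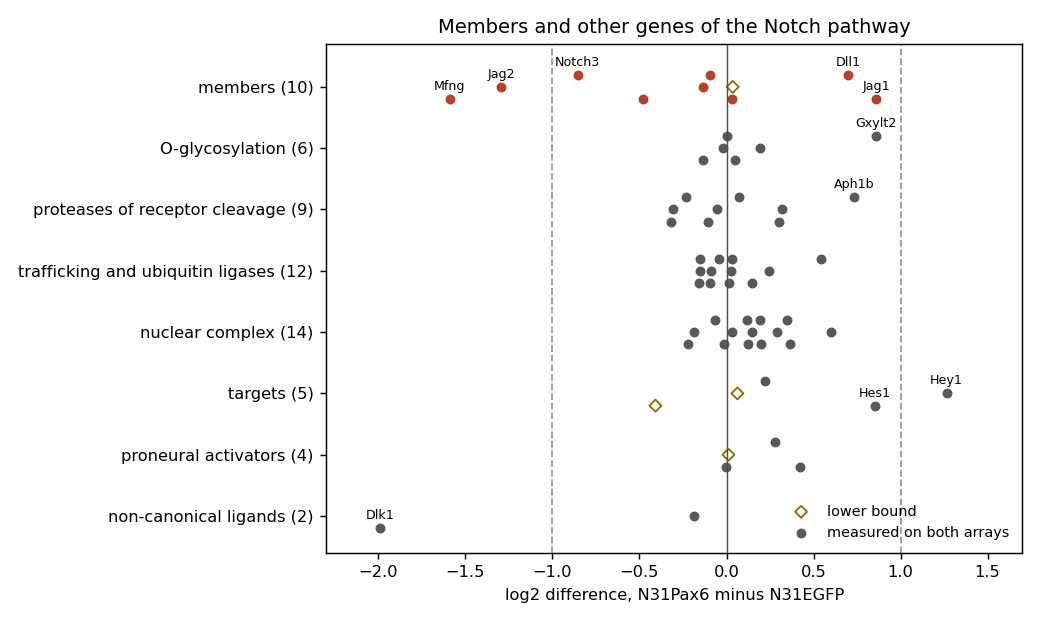
Log2 differences, N31Pax6 minus N31EGFP, of the members (top row) and of the 7 lists of other pathway genes, 1 point per gene, with dashed lines at 2-fold, diamonds for lower bounds and the number of genes in brackets. Hey1 and Dlk1 are the only points of the 7 lists beyond the dashed lines, and most others lie near 0.

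The lines were checked against markers of their labelled cell type and of others. All 8 neural progenitor genes were detected, with Nes 3.17-fold lower, Slc1a3 12.9-fold lower and Sox2 3.34-fold higher in N31Pax6, while Vim and Msi1 differed by 0.13 and 0.03. A second Slc1a3 probe was 3.47-fold lower in N31Pax6, so the probes of this gene differ in size. Sox1 and Fabp7 were dim, with signals of 18.7 and 19.7 in N31Pax6 and of 19.2 and 12.3 in N31EGFP. All 4 epithelial markers were at least 2-fold lower in N31Pax6. The summed signals given here are not scaled, and the 75th percentile of signal was 1.16 times as high in N31Pax6. The epithelial sum was 25057 in N31Pax6 and 59264 in N31EGFP, mostly from Krt18 with 18657 in N31Pax6 and 42773 in N31EGFP. The detected pluripotency markers summed to 337 in N31Pax6 and 401 in N31EGFP, and 1 of the 4, Zfp42, was 2.81-fold lower in N31Pax6. Most of the sum came from Dppa5a, with 244 in N31Pax6 and 218 in N31EGFP, which differed by -0.05 after scaling. Nanog, a dim gene, differed by -0.81 ± 0.31. The detected neuron markers summed to 2556 in N31Pax6 and 2819 in N31EGFP, and 1 of these 4, Snap25, was 3.15-fold lower in N31Pax6. Syt1 made up most of the neuron sum, with 1801 in N31Pax6 and 1983 in N31EGFP. Pou5f1, which encodes Oct3/4, had 14.3 in N31Pax6 and 7.99 in N31EGFP, the last not well above background. Pou5f1 and Sox2 are also genes of the doxycycline switch, and whether their probes read the transgenes is not known here. Of the endothelial genes, Pecam1, Cdh5 and Emcn were detected in neither line, nor were the blood cell genes Ptprc and Aif1. The 2 detected endothelial genes summed to 34.2 in N31Pax6 and 26.0 in N31EGFP. After scaling, Tek differed by 0.18 ± 0.34, and Kdr, dim in N31EGFP, had a bound of 0.00. Cd68, a macrophage gene and the 1 detected blood gene, had signals of 280.1 in N31Pax6 and 346 in N31EGFP. It differed by -0.52 ± 0.20 after scaling. The part of these shifts in the member differences was not tested. The brightest Pax6 probe had signals of 822 in N31Pax6 and 557 in N31EGFP, a log2 difference of 0.35 ± 0.20, and a second probe on 9 spots gave 0.26. The remaining probe, a dim one, had 14.8 in N31Pax6 and 2.50 in N31EGFP, the last not well above background, and was at least 1.23-fold higher. The mean over the 3 probes as measured was 0.99, raised by this dim probe, which differed by 2.34 ± 1.46 as measured. The sources used here do not say whether the Pax6 vector holds the stretches they read, so they do not check the labels on which every direction rests.

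**Figure D5:**
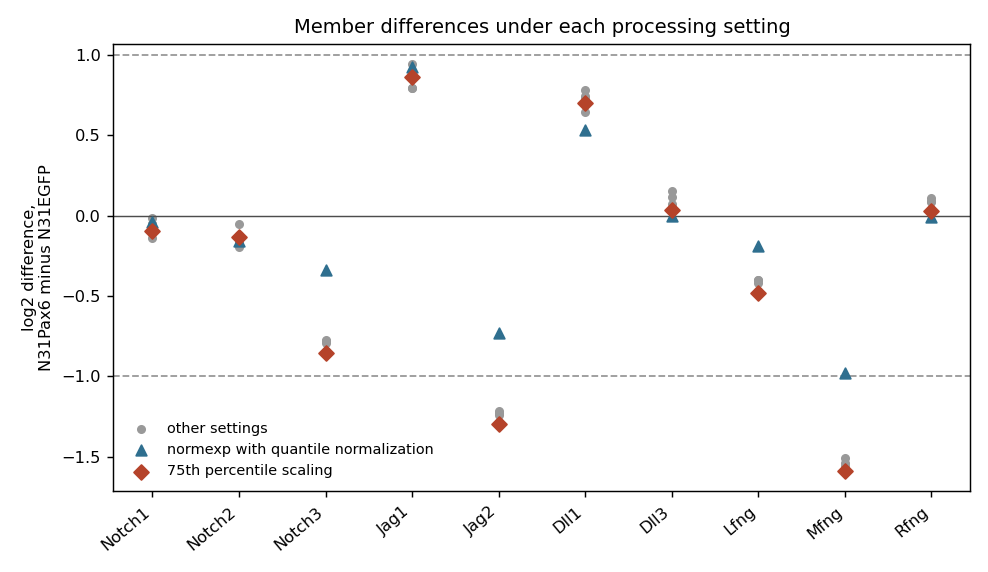
Log2 difference of each member gene, N31Pax6 minus N31EGFP, under each processing setting, with diamonds for scaling by the 75th percentile, triangles for normexp background correction with quantile normalization and grey points for the other settings. Mfng and Jag2 move inside the dashed 2-fold lines with that correction, to -0.98 and -0.73, and stay beyond them under the other scalings.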

How the data were processed

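Total RNA of both lines was labelled with Cy3 after linear amplification and hybridised to 1-colour Agilent arrays, per the labels' protocols. The scanner images were read by Agilent's Feature Extraction (version 10.7.3.1). The deposited intensity values are background-subtracted and detrended within each array, not normalized between arrays, per the file headers. Deposited flags (unit other) mark spots well above background (13 SDs) and outliers. The series table equals the scanner values.

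Control spots and outlier spots were left out, which kept 43283 spots of 41168 probes. The log2 signal was reduced by the array's 75th percentile (991 in N31Pax6, 854 in N31EGFP). Replicate spots were averaged, and each gene was read from its brightest probe. Of 43379 spots, 67.2% in N31Pax6 and 64.7% in N31EGFP were well above background and none was saturated. The arrays share 1 slide and scan. A gene dim on 1 array has a lower bound, against its own dim value or, if higher, the dimmest detected signal (9.30 in N31Pax6, 10.3 in N31EGFP). The 8 spike-in controls differed by -0.05 to 0.09. The software's multiplicative error is 10.0%. Over 172 replicated probes the SD of the difference had a median of 0.08 and a 95th percentile of 0.44. The number of arrays limits the precision.

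No test was made. Genes were called at 2-fold or more. Members and lists were chosen with earlier results of these data known. Named were all members, list genes at least 2-fold different and up to 4 others per list, with further genes (Rbpj, Aph1c and the markers) chosen after their values were seen. Some genes that this rule takes are not reported here. Steps were tested on simulated data. Coordinates are those of the array design (mm7), and its exons were not used here. Alternatives covered scaling, background correction, probe summary, filters and size rules. Tools were R 4.3.3, limma 3.58.1, Python 3.11.15, numpy 2.4.6 and pandas 2.3.3.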

Additional observations from a re-analysis of the deposited data

How the results depend on the processing

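Over the 11 alternatives of scaling, background correction, source, probe summary and filter, 9 of the 10 member genes kept the sign of their difference wherever it could be computed, Dll3 reaching 0.00 with normexp background correction plus quantile normalization (below, normexp), and Rfng passed to -0.01 there. The count of members at least 2-fold different stayed at 2 under all of these, quantile normalization alone included, but normexp, where it was 0 (also 0 of 14 probes) and 285 genes were called in all. The differences of Mfng, Jag2, Notch3 and Lfng moved by more than their error there, to -0.98, -0.73, -0.34 and -0.19, while Jag1 and Dll1 were 0.93 and 0.54. Without a filter on dim probes 2187 genes were called. At 3-fold, 1 member (Mfng, 1 probe) and 268 genes were called, and at 1.5-fold, a rule chosen after seeing the data, 5 members, 6 member probes and 2631 genes. Scaling by the array medians changed the split of all 2-fold genes to 538 higher and 370 lower, and normexp changed it to 176 higher and 109 lower, against 452 higher and 467 lower as reported. Of 53 other genes, those of the pathway and Pax6, 41 kept their sign and 8 moved by more than their error under some alternative. Those were Adam10, Maml3 and Neurog3 (-0.09, 0.16 and 0.05 with normexp), Dtx3, Ep300, Neurl1a and Pax6 (0.03, 0.06, 0.13 and 0.99 as the mean over probes) and Hes7 (0.95 with dim values as measured). Hey1 and Dlk1 ranged from 1.25 to 1.35 and from -2.02 to -1.91. Values near background are limited by dim signal. No paired analysis was possible because each line has 1 array.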
